A study of Mus musculus with 4 samples.

Results

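Neutrophils are short-lived phagocytes of the blood that carry ready-made granules of antimicrobial proteins and reach inflamed tissue by following chemokines through the receptor Cxcr2. They are released from the marrow under the control of granulocyte colony-stimulating factor, which acts through the receptor Csf3r. Granule proteins are made stage by stage in the marrow, azurophil proteins first, then those of the specific (secondary) granules and then those of the gelatinase granules, so that a mature blood neutrophil has shut off most granule genes and expresses cytokine and chemokine genes in their place.

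Neutrophils were taken here from droplet single-cell RNA libraries of mouse peripheral blood leukocytes by a gate on raw UMI counts (UMIs, molecular tags that count each captured RNA once). A barcode was kept when it held 200 or more genes and at most 10% mitochondrial UMIs. A kept barcode was called a neutrophil when Csf3r, Cxcr2 and Retnlg together reached 2 UMIs, when the B cell genes Cd79a, Cd79b and Ms4a1, the T cell genes Cd3d, Cd3e and Cd3g and the monocyte genes Csf1r and Ms4a6c each summed to at most 1 UMI, and when the NK cell gene Ncr1 was at 0. The members were thus chosen by their own UMI counts of these genes, so that levels of the gate genes, and any contrast with the cells left outside, are given as a description. The gate took 967 of 15439 kept barcodes, or 6.26%.

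The libraries came from 12 C57BL/6J mice, 10 weeks old, that had been inoculated with acute lymphoblastic leukaemia cells. Every mouse had received dasatinib, an inhibitor of ABL and SRC family kinases, for 1 week when blood was drawn, was in remission at that time, and stayed on the drug for 4 more weeks. The Relapsed group held 6 mice that had relapsed by day 100 after leukaemia inoculation and the Cured group 6 mice still in remission at that day. White cells were frozen, thawed and sorted for live cells, and the cells of 3 mice were pooled for each library, which gave 2 Relapsed and 2 Cured libraries. The groups were formed from the later outcome, so that every mouse had had the same treatment at sampling. Differences between the mice of 1 pool cannot be seen, and p-values refer to the spread between pools of separate mice. With 2 libraries per group, the gene test took most of that spread from all genes together (median prior degrees of freedom 26.1). The spread of a single gene counted for less.

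The libraries held between 7184045 and 10840397 UMIs in 3631 to 4383 barcodes. Neutrophils had little RNA, with a median of 979 UMIs and 465 genes, against 2189.5 UMIs and 871 genes in the other kept barcodes, and they held 2.96% of all kept UMIs. The neutrophil sums behind the gene test were 383001 and 203136 UMIs in the Relapsed libraries and 243075 and 248037 UMIs in the Cured libraries. Between libraries, 131 barcode sequences recurred, and 0 of them were neutrophils in more than 1 library. Relapsed replicate 1 stood apart. It held 279 of the 356 barcodes under 200 genes, the largest neutrophil share and most of the haemoglobin UMIs, so results that rest on it are given with and without it.

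The label was checked against lineage markers. S100a8 and S100a9, the subunits of calprotectin, were not used by the gate, and S100a8 had a UMI in 99.1% of the neutrophils and in 5.31% of gated B cells, whose median depth was 2134.5 UMIs. Csf3r, which the gate did use, had a UMI in 88.4% of neutrophils and in 0.140% of B cells. Defining markers of several other lineages were at 0. The basophil and mast cell genes Mcpt8, Cpa3, Fcer1a, Ms4a2 and Prss34 had 0 UMIs in all 4 libraries, which allows up to 0.310% of cells with a UMI and does not limit the share of cells that express the gene. The eosinophil granule genes Prg2 and Epx also had 0 UMIs, while Siglecf, a lectin of eosinophils, had a UMI in 1.86% of neutrophils and in 0% of the other gated classes. The 2 leukaemia constructs in the reference, BCR_ABL_1 and GFP_1, had 0 UMIs in neutrophils. The summed markers of monocytes, B cells and NK cells include genes that the gate itself limits (Csf1r and Ms4a6c, Cd79a, Cd79b and Ms4a1, and Ncr1), so they are given as a description and not as a check. Ly6c2, a monocyte marker that the gate did not use, was seen in 14.1% of neutrophils. The 8 monocyte markers came to 332 and 463 CPM (UMIs of a gene per 1000000 UMIs of the library's neutrophils) in the Relapsed libraries and 226 and 702 CPM in the Cured libraries. The 5 B cell markers came to 62.7 and 64.0 CPM in the Relapsed libraries and 74.1 and 64.5 CPM in the Cured libraries. The 4 NK cell markers came to 15.7 and 9.85 CPM in the Relapsed libraries and 0 and 4.03 CPM in the Cured libraries.

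**Figure D1:**
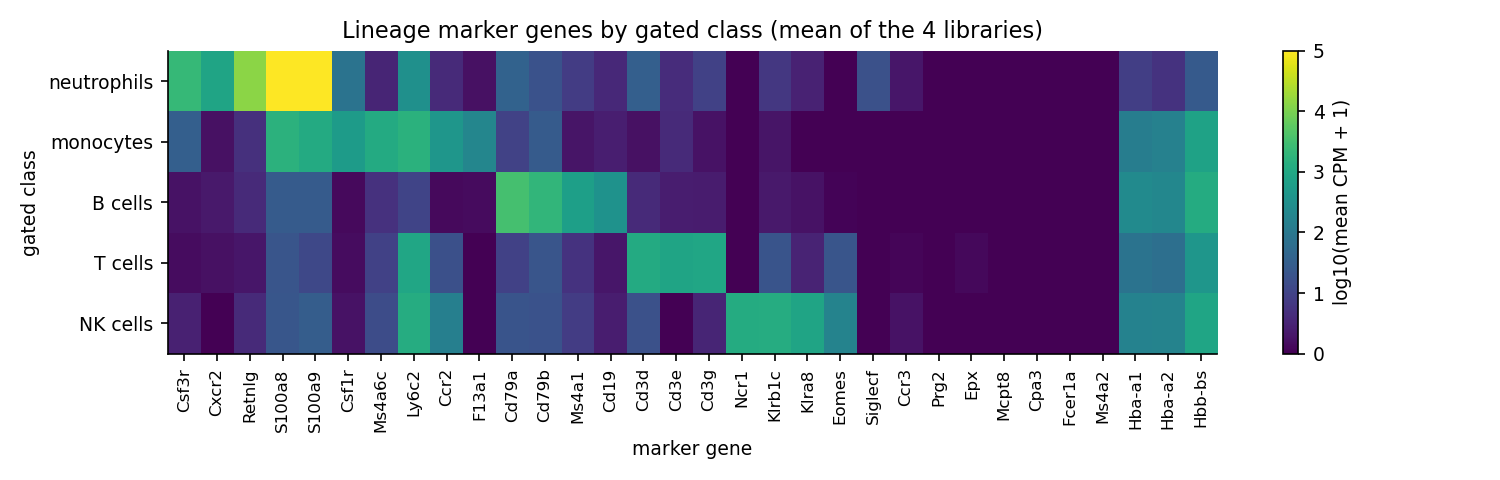
Mean level over the 4 libraries, as log10(CPM + 1), of lineage marker genes (columns) in each gated class (rows). S100a8 and S100a9 reach the top of the scale in neutrophils alone among the 5 classes, and of the plotted eosinophil and basophil genes (Siglecf, Ccr3, Prg2, Epx, Mcpt8, Cpa3, Fcer1a and Ms4a2) Siglecf in neutrophils is the brightest, at a mean of 16.2 CPM.

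The edge of the gate was soft. The 35 cells with exactly 2 UMIs of the gate genes had a median of 7.48% of their UMIs in S100a8 and S100a9, and the 38 barcodes with 1 such UMI, which were left out, had 5.68%. The median member had 11 such UMIs, and 880 of 967 members had at least 4. A further 187 kept barcodes reached 2 UMIs but failed a limit on another lineage, most often the B cell limit (112 barcodes). No doublet caller was run, so the limits on other lineages were the only guard against barcodes that held more than 1 cell.

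The transcriptome was dominated by calprotectin. S100a9 had 92966 and 111403 CPM in the Relapsed libraries and 89676 and 99449 CPM in the Cured libraries. S100a8 had 90355 and 105033 CPM in the Relapsed libraries and 89717 and 98441 CPM in the Cured libraries. The groups overlapped for both. The other genes among the 10 highest were Gm42418, Tmsb4x, Malat1, Retnlg, S100a6, S100a11, Tyrobp and Ftl1. Retnlg, a resistin-like secreted protein and a gate gene, had 13804 and 16063 CPM in the Relapsed libraries and 13930 and 10454 CPM in the Cured libraries.

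Cells differed widely in how much calprotectin RNA they held. The share of a cell's UMIs in S100a8 and S100a9 ran from 0% to 47.0%, with a median of 17.1%, and 720 of 967 cells were at 10% or more. The library medians were 16.9% and 19.2% in the Relapsed libraries and 15.4% and 17.8% in the Cured libraries, so the groups overlapped. Retnlg followed the same order. Its median was 1.80 UMIs per 1000 in the 87 cells with 1% to 5% calprotectin, 6.97 in the 347 cells with 10% to 20% and 18.7 in the 90 cells at 30% or more. Csf3r, the granulocyte growth factor receptor, ran the other way. Its median was 3.76, 2.51 and 1.36 UMIs per 1000 in the same 3 sets of cells. In raw UMIs the Csf3r median was 3, 2 and 2, at median depths of 791, 914 and 1496.5 UMIs. Csf3r and Retnlg are both gate genes. A cell with under 2 Retnlg UMIs needed Csf3r or Cxcr2 to be a member, so part of the opposite order is built in. Il1b, the inflammatory cytokine interleukin 1 beta, was seen in 96.6%, 85.6% and 55.6% of the cells in these 3 sets when each cell was thinned to 500 UMIs. These are shares of 1 total, so that a cell with more calprotectin must have less of something else. Only 20 cells had under 1% calprotectin, and they were spread as 8 and 4 over the Relapsed libraries and 4 and 4 over the Cured libraries.

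Genes that the gate did not use were up to 219-fold higher in mean CPM in neutrophils than in the rest of the blood, given as a description since the gate chose the cells. The 15 highest ratios to all other kept barcodes, among genes at 200 CPM or more, were those of Cstdc4, Asprv1, Il1rn, Chil1, S100a9, Arg2, Stfa2l1, Gm16556, Mmp9, S100a8, Mirt2, Stfa1, Lrg1, Il1f9 and Lcn2. Cstdc4, Stfa1 and Stfa2l1 are stefins, inhibitors of cysteine proteases that lie in a family of near-identical copies, so that reads may be split between them. Cstdc4 averaged 1080 CPM in neutrophils and 4.93 CPM in the other barcodes. Asprv1, an aspartic protease, averaged 374 and 1.79 CPM in the same order, and Il1rn, the antagonist of the interleukin 1 receptor, 218 and 1.15 CPM. Mmp9, the gelatinase of the tertiary granules, averaged 1318 and 7.39 CPM.

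Against the 281 monocytes of the matching gate, the closest myeloid class, 10 genes led. Stfa2l1, Mmp9, Cstdc4, Il1f9, Asprv1 and Arg2 had 0 UMIs in those monocytes. Set against 3 UMIs over the monocytes of all 4 libraries, Mmp9 was at least 446-fold higher and Cstdc4 at least 365-fold higher in neutrophils. Slc40a1, the iron exporter ferroportin, averaged 305.5 CPM in neutrophils and 0.794 CPM in monocytes. H2-Q10, a secreted MHC class I molecule, averaged 595 and 2.20 CPM in the same order, and Ifitm1, an interferon-induced membrane protein, 2861 and 19.8 CPM. The monocyte values of Slc40a1 and H2-Q10 came from 1 and 3 UMIs. Slc40a1 was thus set against fewer UMIs than the genes at 0, and its rank among the 10 rests on that. S100a8 and S100a9 were not among the 10 because 1 monocyte-gate barcode of Relapsed replicate 2 held 1053 UMIs of Camp, Ngp and Ltf. Without it, S100a9 averaged 71.7 CPM in monocytes, and the list was led by Ngp, S100a9 and S100a8.

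Genes of the successive granule stages differed in level. Of 10 azurophil granule genes, 4 had 0 UMIs, namely Mpo (myeloperoxidase), Elane (neutrophil elastase), Ctsg (cathepsin G) and Ms4a3. Hexa, the most abundant of the list and a lysosomal enzyme, averaged 73.6 CPM. In the gelatinase granule list, Mmp9 averaged 1318 CPM and Hp (haptoglobin) 2121 CPM. The place of Hp at this stage comes from the list and not from these data. Of the 17 genes of the secondary granule list, Slpi was the most abundant at 4244 CPM. Camp (cathelicidin), Ngp (neutrophilic granule protein) and Ltf (lactoferrin) averaged 2453, 3670 and 671 CPM over the libraries, but their means came from very few cells. This did not hold for the list as a whole, with 10293 UMIs in those few cells and 15090 UMIs in the other neutrophils.

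Of the 967 neutrophils, 915 had 0 UMIs of Camp, Ngp and Ltf together, 31 had 1 to 9, and 21 had 10 or more. Those 21 cells held 6344 of the 6404 UMIs of the 3 genes, or 99.1%. They were 6 and 5 cells in the Relapsed libraries and 4 and 6 cells in the Cured libraries, so each library had some. As shares of the neutrophils these were 1.61% and 2.86% in the Relapsed libraries and 1.76% and 3.13% in the Cured libraries, and the exact binomial 95% intervals of all 4 overlapped. The cells were also deep, with a median of 3143 UMIs, against 976.5 UMIs in the other neutrophils. The split was also there at equal depth. With every cell thinned to 500 UMIs, the 21 cells had 4 to 72 UMIs of the 3 genes (median 47), and 934 of the other 946 cells had 0. The rule of 10 UMIs was chosen after the counts per cell had been seen, and no test was run between the 2 kinds of cell.

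The 21 cells had little Il1b, Cxcr2 or Csf3r RNA. Il1b had 1 UMI in 1 of the 21 cells and was seen in 94.0% of the other neutrophils (in 0.246% of B cells). At 500 UMIs per cell it was seen in 1 of 21 cells and in 83.5% of the others. Cxcr2 was seen in 5 of the 21 cells and in 60.1% of the others, and Csf3r in 9 of the 21 and in 89.4% of the others. They were nevertheless members of the gate, mostly through Retnlg, which had a median of 31 UMIs in the 21 cells and of 7 UMIs in the others. These 2 medians are raw counts at unlike depth, with a median of 3143 UMIs in the 21 cells and 976.5 UMIs in the others. They do not show a higher share of Retnlg in the 21 cells. S100a8 and S100a9 took a median of 38.4% of the UMIs in the 21 cells and of 16.9% in the others.

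**Figure D2:**
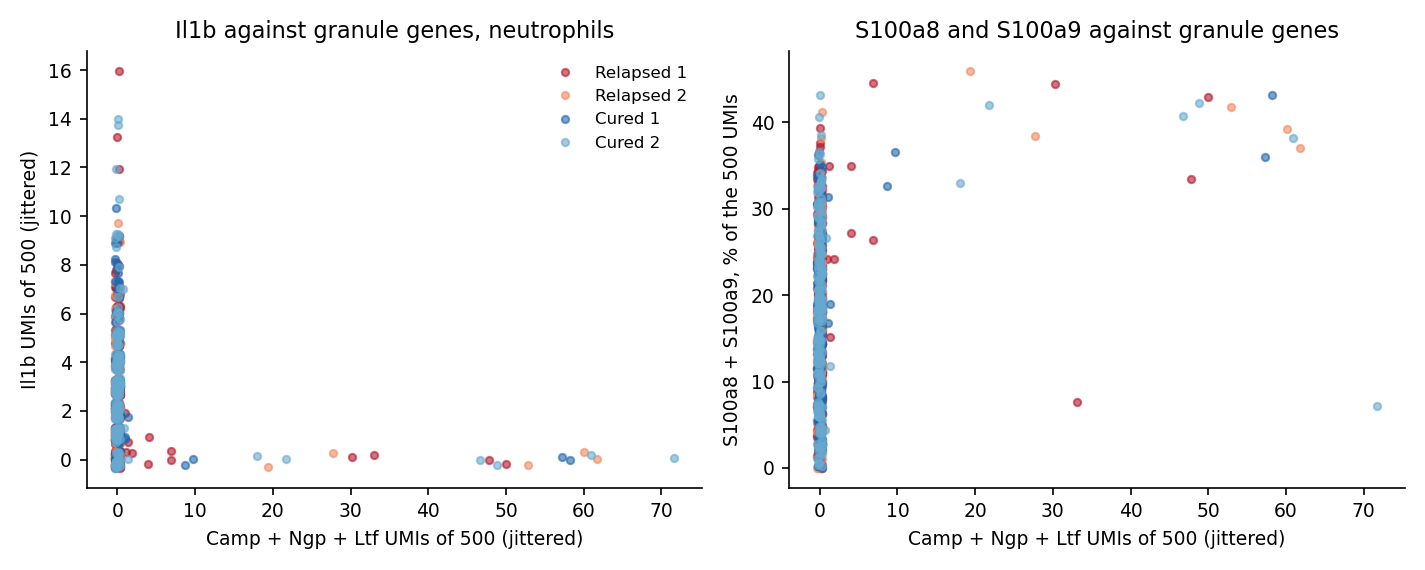
Each point is 1 of 967 neutrophils, thinned to 500 UMIs and coloured by library. The horizontal axis gives Camp, Ngp and Ltf UMIs, and the vertical axes give Il1b UMIs (left) and the percent of UMIs in S100a8 and S100a9 (right), with small random offsets on the UMI counts. The 21 cells with 10 or more granule UMIs before thinning lie between 4 and 72 on the horizontal axis, with 1 of them above 0 for Il1b, while 934 of the other 946 cells sit at 0 on that axis.

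Other granule and membrane genes went with Camp, Ngp and Ltf. These genes were picked after their values had been seen, among 270 genes at 500 CPM or more in either kind of cell. Chil3, a chitinase-like lectin, had 1859 CPM in the 21 cells and 7.95 CPM in the others. Cd177, a surface protein of neutrophil subsets, had 1192 and 48.7 CPM in the same order, Cybb, the catalytic subunit of the NADPH oxidase, 1306 and 57.6 CPM, and Lcn2 (lipocalin 2) 20789 and 1927 CPM. Ly6g, a surface antigen widely used to mark mouse neutrophils, had 1689 and 152 CPM. All 5 were higher in the 21 cells in each of the 4 libraries. Lower in the 21 cells in each library were Wfdc17, with 1 UMI, and Cstdc4, H2-Q10 and Cxcl2, each with 0 UMIs in the 21 cells. Ccl6, a chemokine, had 85.1 CPM in the 21 cells and 4749 CPM in the others, and Ifitm1 had 99.3 and 3159 CPM. Among the 270 genes, 33 were higher and 184 lower in the 21 cells in all 4 libraries. Calprotectin took a median of 38.4% of their UMIs, which lowers the share of every other gene.

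Camp, Ngp and Ltf share a neighbourhood as well as cells. All lie on mouse chromosome 9 in GRCm38, Camp at 109847379 to 109849617 on the minus strand, Ngp at 110419747 to 110423012 on the plus strand and Ltf at 111019271 to 111042767 on the plus strand. Il1b lies on chromosome 2 at 129364570 to 129371139 on the minus strand, and its exons overlap those of the antisense gene Il1bos, so that part of its count cannot be told from that gene if strand was not used. Their promoters are printed because the 3 granule genes were seen together in the 21 cells, in which Il1b was nearly absent, and because secondary granule genes are known targets of the C/EBP family, with C/EBP epsilon needed for their expression. The windows run from 250 bases before to 50 bases after the RefSeq start site (GRCm38.p6), 5′ to 3′ on the gene's strand, at chr9:109849407-109849706 for Camp, chr9:110419558-110419857 for Ngp, chr9:111019042-111019341 for Ltf and chr2:129371090-129371389 for Il1b. Capitals mark matches to the C/EBP-type motif TTNCNNAA on either strand.
Camp promoter: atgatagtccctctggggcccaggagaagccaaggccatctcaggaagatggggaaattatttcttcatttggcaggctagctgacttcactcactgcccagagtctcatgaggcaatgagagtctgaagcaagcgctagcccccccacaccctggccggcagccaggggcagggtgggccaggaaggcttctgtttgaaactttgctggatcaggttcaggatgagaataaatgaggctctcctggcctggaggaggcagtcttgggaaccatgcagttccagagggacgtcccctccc
Ngp promoter: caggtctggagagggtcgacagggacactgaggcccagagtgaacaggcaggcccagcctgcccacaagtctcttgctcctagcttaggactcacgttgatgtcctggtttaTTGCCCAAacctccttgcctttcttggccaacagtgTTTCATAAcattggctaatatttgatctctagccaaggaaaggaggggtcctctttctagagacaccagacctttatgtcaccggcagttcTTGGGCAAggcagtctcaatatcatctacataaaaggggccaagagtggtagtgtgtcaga
Ltf promoter: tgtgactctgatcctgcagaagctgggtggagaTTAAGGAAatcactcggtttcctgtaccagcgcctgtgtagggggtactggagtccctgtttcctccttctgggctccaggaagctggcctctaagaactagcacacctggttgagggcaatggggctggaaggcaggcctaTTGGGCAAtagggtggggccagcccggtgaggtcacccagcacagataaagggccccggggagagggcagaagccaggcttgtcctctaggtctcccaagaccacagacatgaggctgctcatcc
Il1b promoter: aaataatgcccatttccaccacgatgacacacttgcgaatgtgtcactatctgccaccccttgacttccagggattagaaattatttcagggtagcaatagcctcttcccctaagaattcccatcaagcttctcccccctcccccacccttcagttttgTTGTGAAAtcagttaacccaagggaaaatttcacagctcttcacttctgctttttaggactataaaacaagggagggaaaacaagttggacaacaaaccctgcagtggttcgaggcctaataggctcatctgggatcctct
The motif matched 0 times in the Camp window, 3 times in Ngp, 2 times in Ltf and 1 time in Il1b, with no overlap between matches. Of 32851 RefSeq promoter windows of this length, 40.7% hold a match. The ETS-type motif GAGGAAG matched in none of the 4 windows and in 13.6% of all windows. A match is a description of the letters, not a bound site.

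Whether blood neutrophils after 1 week of treatment differed between mice that later relapsed and mice that stayed in remission is the comparison the design sets up. The neutrophil share of kept barcodes was 11.5% and 4.10% in the Relapsed libraries and 6.01% and 4.64% in the Cured libraries. One Relapsed library was the highest of the 4 and the other the lowest. The Relapsed mean was 7.78% ± 5.21 and the Cured mean 5.32% ± 0.964 (SD, n = 2 libraries each), a difference of 2.46 percentage points with p = 1 in an exact two-sided permutation test, which cannot go below 0.333 with 2 libraries against 2. Without Relapsed replicate 1 the difference was -1.23 points. As a ratio to gated B cells, the counts were 0.173 and 0.0525 in the Relapsed libraries and 0.0821 and 0.0612 in the Cured libraries, with the same order.

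**Figure D3:**
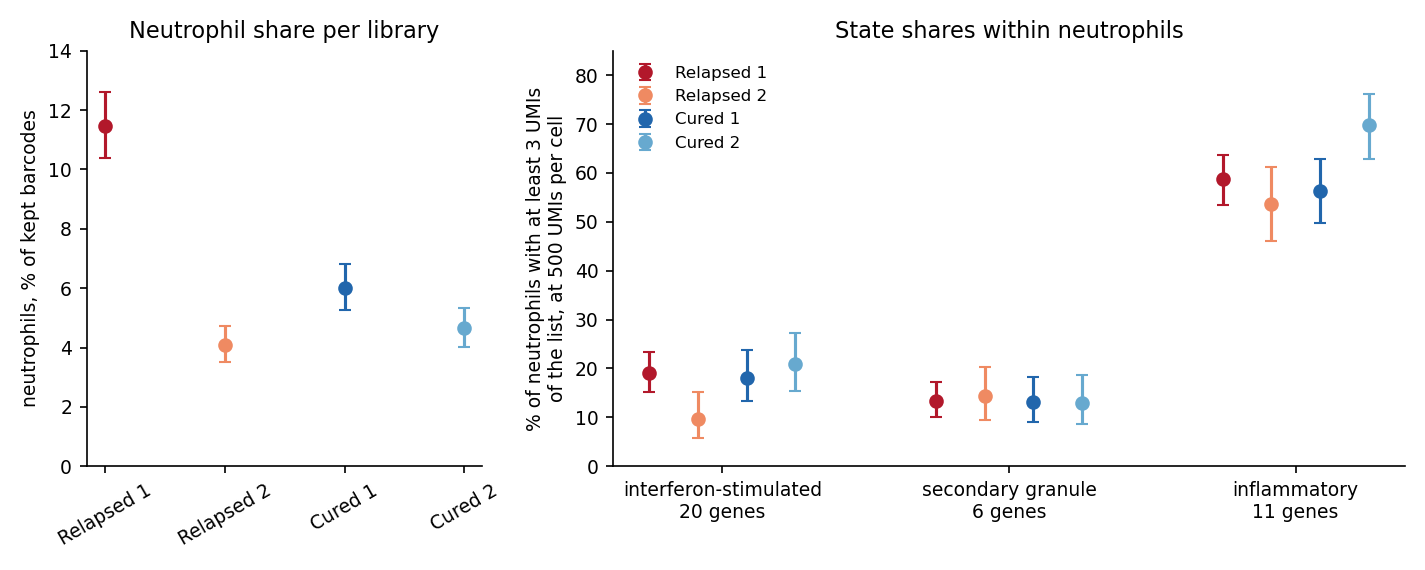
Left, neutrophils as a percent of kept barcodes in each library; right, percent of neutrophils with at least 3 UMIs of each of 3 state lists after thinning to 500 UMIs per cell. Points are libraries and bars exact binomial 95% intervals, which cover counting error only. Relapsed 1 stands at 11.5% on the left while the other 3 libraries lie between 4.10% and 6.01%; on the right, Relapsed 2 is lowest for the interferon list at 9.71%.

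Gene expression was compared on UMIs summed over the neutrophils of each library with edgeR's quasi-likelihood test. Of 2567 genes tested, 3 passed an adjusted p of 0.05 (Benjamini-Hochberg over all of them), which is 0.117% of the genes, and all 3 were higher in Relapsed. They were Ccl5 and Gzma, a chemokine and a granzyme that NK cells and cytotoxic T cells make, and AW112010, a lincRNA in the GENCODE annotation. Unadjusted p was under 0.05 for 104 genes, or 4.05%. None of the genes that define neutrophils was among the 3.

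Ccl5 had 142 and 66 UMIs in the Relapsed libraries and 12 and 9 UMIs in the Cured libraries. These were 371 and 325 CPM in the Relapsed libraries and 49.4 and 36.3 CPM in the Cured libraries, with no overlap between groups. Its log2 fold change of Relapsed over Cured was 3.0 ± 0.32 (SE; edgeR adjusted p = 1.03e-06). Gzma had 67 and 59 UMIs in the Relapsed libraries and 4 and 2 UMIs in the Cured libraries, with a log2 fold change of 4.15 ± 0.48 (edgeR adjusted p = 2.66e-06). AW112010 had 40 and 17 UMIs in the Relapsed libraries and 2 and 1 UMIs in the Cured libraries, with a log2 fold change of 3.86 ± 0.59 (edgeR adjusted p = 0.000373). All 3 genes were high in both Relapsed libraries and low in both Cured libraries. Without Relapsed replicate 2, Gzma had an edgeR adjusted p of 0.0635, and AW112010 had 0.447 without Relapsed replicate 1 and 0.180 without Relapsed replicate 2.

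These 3 calls rested on 3 barcodes. Relapsed replicate 1 held 2 of them, with 106 and 71 UMIs of Gzma and Ccl5 together, and the other was in Relapsed replicate 2 and had 113. Of the other 964 neutrophils, 906 had 0 such UMIs and the highest had 6. The 3 barcodes had 2680, 2944 and 2149 UMIs in all, above the neutrophil median of 979. In the same order they had 6, 8 and 5 UMIs of the NK cell gene Nkg7. Of Klrd1 they had 2, 4 and 2 UMIs, and of Klrb1c 1, 2 and 2. The cytotoxic genes Prf1 and Gzmb were nearly absent, with 0, 1 and 0 UMIs of Prf1 and 0 of Gzmb in these barcodes. S100a8 and S100a9 took 0.410%, 11% and 10.4% of their UMIs in the same order, against a median of 17.1% over all neutrophils. Ncr1 was at 0 in them because the gate requires it. Whether these barcodes held more than 1 cell was not tested. A Gzma UMI was seen in 1.86% of neutrophils, 1.28% of gated B cells and 99.2% of gated NK cells, whose median depths were 979, 2134.5 and 1897.5 UMIs. The summed NK cell markers, given above in CPM, were higher in both Relapsed libraries than in either Cured library, and 2 of the 4 were at 0. In UMIs the sums were 6 and 2 in the Relapsed libraries and 0 and 1 in the Cured libraries. The Klrb1c UMIs of the 3 barcodes are part of these sums, which are thus not a separate difference between groups.

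Without the 3 barcodes, Gzma had 7 and 5 UMIs in the Relapsed libraries and 4 and 2 UMIs in the Cured libraries, and Ccl5 had 25 and 7 UMIs in the Relapsed libraries and 12 and 9 UMIs in the Cured libraries. AW112010 had 5 and 3 UMIs in the Relapsed libraries and 2 and 1 UMIs in the Cured libraries. The Ccl5 groups then overlapped, while those of Gzma and AW112010 did not overlap in CPM at these counts. The Ccl5 log2 fold change was 0.32 ± 0.46 (edgeR adjusted p = 0.991). With those barcodes left out, 0 of 2553 genes passed in edgeR, 107 (4.19%) had an unadjusted p under 0.05, and Gzma and AW112010 no longer passed the filter on low counts. This alternative was chosen after the data had been seen. DESeq2 on all 967 cells called 2 genes (0.0779%), Ccl5 and Gzma, with 9 genes (0.351%) at an unadjusted p under 0.05.

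**Figure D4:**
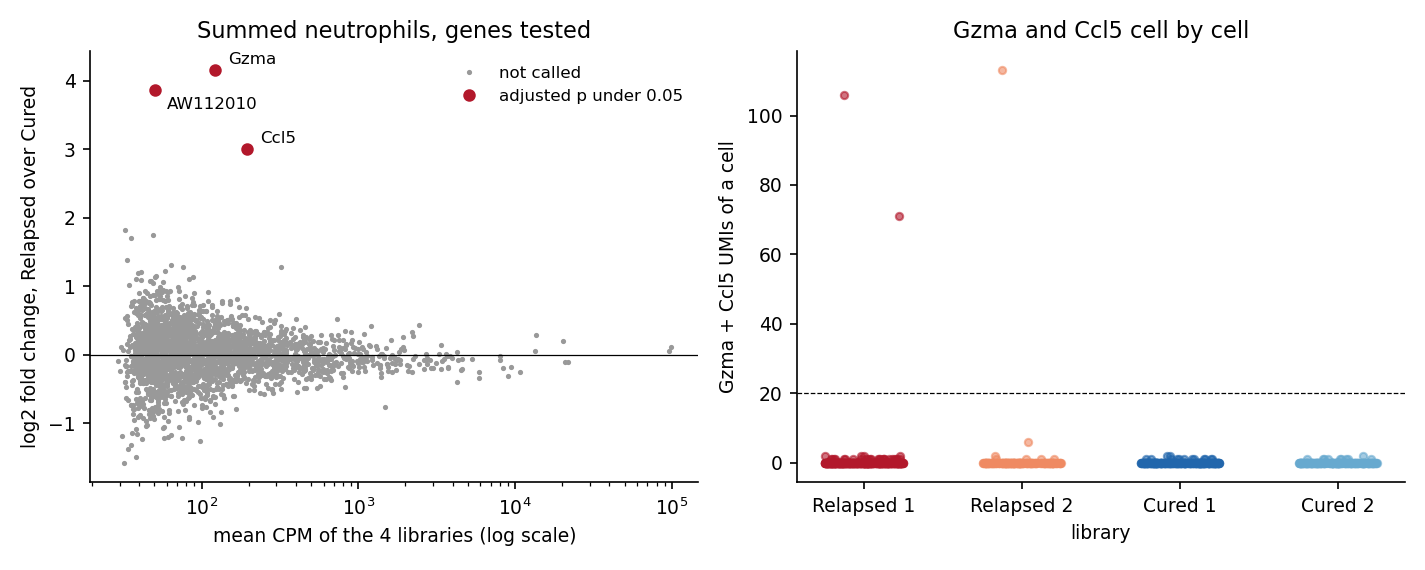
Left, log2 fold change of Relapsed over Cured against mean CPM (log scale) for 2567 genes in summed neutrophils, with the 3 genes past an adjusted p of 0.05 in red. Right, Gzma and Ccl5 UMIs of each of the 967 cells by library, with a dashed line at 20 UMIs. Above the line are 2 cells of Relapsed 1, 1 cell of Relapsed 2 and 0 cells of the Cured libraries.

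The genes with the smallest p below the calls did not pass the correction, with edgeR adjusted p of 0.634 or more. Phospho1 passed when cells were thinned to 500 UMIs, and Ifi27l2a when cells over 3 times the median depth were left out (-0.77, edgeR adjusted p = 0.0320). Phospho1, a phosphatase, had 19 and 14 UMIs in the Relapsed libraries and 32 and 35 UMIs in the Cured libraries, with a log2 fold change of -1.27 ± 0.35. Ifi27l2a, an interferon-induced gene, had 408 and 233 UMIs in the Relapsed libraries and 579 and 336 UMIs in the Cured libraries, with a log2 fold change of -0.76 ± 0.22. Its groups did not overlap in CPM. The same held for Tnfaip8l2 (-1.01 ± 0.32) and the immediate early gene Egr1 (-0.98 ± 0.35) on the side of lower values, along with Mrtfa, Selenof, Ap2m1 and Stx7, whose log2 fold changes lay between -1.22 and -1.06. On the side of higher values were Ctdsp2 (1.13 ± 0.35), the kinase Gsk3b (1.31 ± 0.41), Mbd6, Sidt2, Msl1 and the scaffold protein Iqgap1 (0.52 ± 0.20). Values after ± are SE. The genes up to here were picked by smallest p, so that a lack of overlap between groups is largely built in. The share of all tested genes without overlap is not given here, so the lack of overlap adds no support. Stfa1, a stefin, had 473 and 438 CPM in the Relapsed libraries and 296 and 76.6 CPM in the Cured libraries. Its groups did not overlap, its log2 fold change was 1.28 ± 0.54 (edgeR adjusted p = 0.995), and Cured replicate 2 was far the lowest. It passed under several alternatives, without Cured replicate 1 among them (2.56 ± 0.41, edgeR adjusted p = 6.85e-07), and is named here after its values were seen.

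The gene lists, which were drawn up with earlier results of these data known, held no called gene in either direction. Over all 2567 genes, 1284 log2 fold changes were positive and 1283 negative, with a median of 0.00. Calprotectin and its relatives were close between groups, as the 5 tested S100 genes had a median log2 fold change of 0.05. The 17 tested genes of chemokine receptors and migration had a median of -0.01, with Cxcr2 at 1021 and 748 CPM in the Relapsed libraries and 798 and 786 CPM in the Cured libraries. The 16 tested secondary granule genes had a median of -0.01, and the 8 gelatinase granule genes 0.21. The 12 genes of the NADPH oxidase and redox list, led by Msrb1, Prdx5 and Gpx1, had a median of -0.06. The 20 actin and motility genes had a median of -0.08 and the 35 ribosomal protein genes -0.04.

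Dasatinib binds kinases of the SRC family, and 7 genes of the kinase list passed the filter. Fgr, a SRC family kinase of myeloid cells, had 420 and 374 CPM in the Relapsed libraries and 403 and 395 CPM in the Cured libraries. Lyn, another, had 368 and 335 CPM in the Relapsed libraries and 350 and 367 CPM in the Cured libraries, and Syk, which acts downstream of them at Fc receptors and integrins, had 345 and 281 CPM in the Relapsed libraries and 304 and 282 CPM in the Cured libraries. All 3 overlapped between groups. The list median was -0.01, with members from -0.35 to 0.22.

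Growth factor and cytokine receptors had the highest list median of the 24 lists with 5 or more tested genes, other than that of the mitochondrially encoded genes. Of 19 tested, 16 log2 fold changes were positive, with a median of 0.31, and 2 had an unadjusted p under 0.05, Csf2rb (the shared beta chain of the GM-CSF receptor, 0.68 ± 0.28) and Il17ra (0.50 ± 0.24), where 4.05% of all genes tested did. Csf3r had 2896 and 2043 CPM in the Relapsed libraries and 1925 and 2137 CPM in the Cured libraries, so that 1 Relapsed library alone stood higher. Without Relapsed replicate 1 the list median was -0.03. The 11 tested mitochondrially encoded genes were all positive, with a median of 0.42, and their sum was 4833 and 2516 CPM in the Relapsed libraries and 2551 and 2967 CPM in the Cured libraries. Without Relapsed replicate 1 that median was -0.52. Haemoglobin Hbb-bs moved with the same library, at 75.7 and 4.92 CPM in the Relapsed libraries and 20.6 and 0 CPM in the Cured libraries, and its part in these values was not tested.

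The type I interferon list had its lowest sum in the other Relapsed library, although single members differed, and Ifi27l2a was lowest in Relapsed replicate 1. The 22 tested genes of the type I list had a median log2 fold change of -0.17, 13 were negative, and 3 (Ifi27l2a, Ly6e and Rtp4) had an unadjusted p under 0.05, against 4.05% of all genes tested. The sum over all 34 measured genes of the list was 5773 and 4258 CPM in the Relapsed libraries and 7109 and 5931 CPM in the Cured libraries, so the groups did not overlap. Of these sums, Ifi27l2a alone made up 1065 and 1147 CPM in the Relapsed libraries and 2382 and 1355 CPM in the Cured libraries. Without this gene the sums of the groups overlap. Isg15, a ubiquitin-like modifier, had 475 and 172 CPM in the Relapsed libraries and 559 and 419 CPM in the Cured libraries, and its log2 fold change was -0.55 ± 0.36 (edgeR adjusted p = 0.995). Relapsed replicate 2 was the lowest of the 4. Without Relapsed replicate 1, Isg15 passed the test (-1.47 ± 0.27, edgeR adjusted p = 5.63e-05), the list median was -0.59, and without Relapsed replicate 2 that median was -0.01. The 12 tested MHC class I genes had a median of -0.18, with H2-D1 at 3282 and 3736 CPM in the Relapsed libraries and 4036 and 3882 CPM in the Cured libraries. The 15 immediate early genes, which respond to handling of blood as well as to stimuli, had a median of -0.18, led by Dusp1, Fos and Zfp36.

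**Figure D5:**
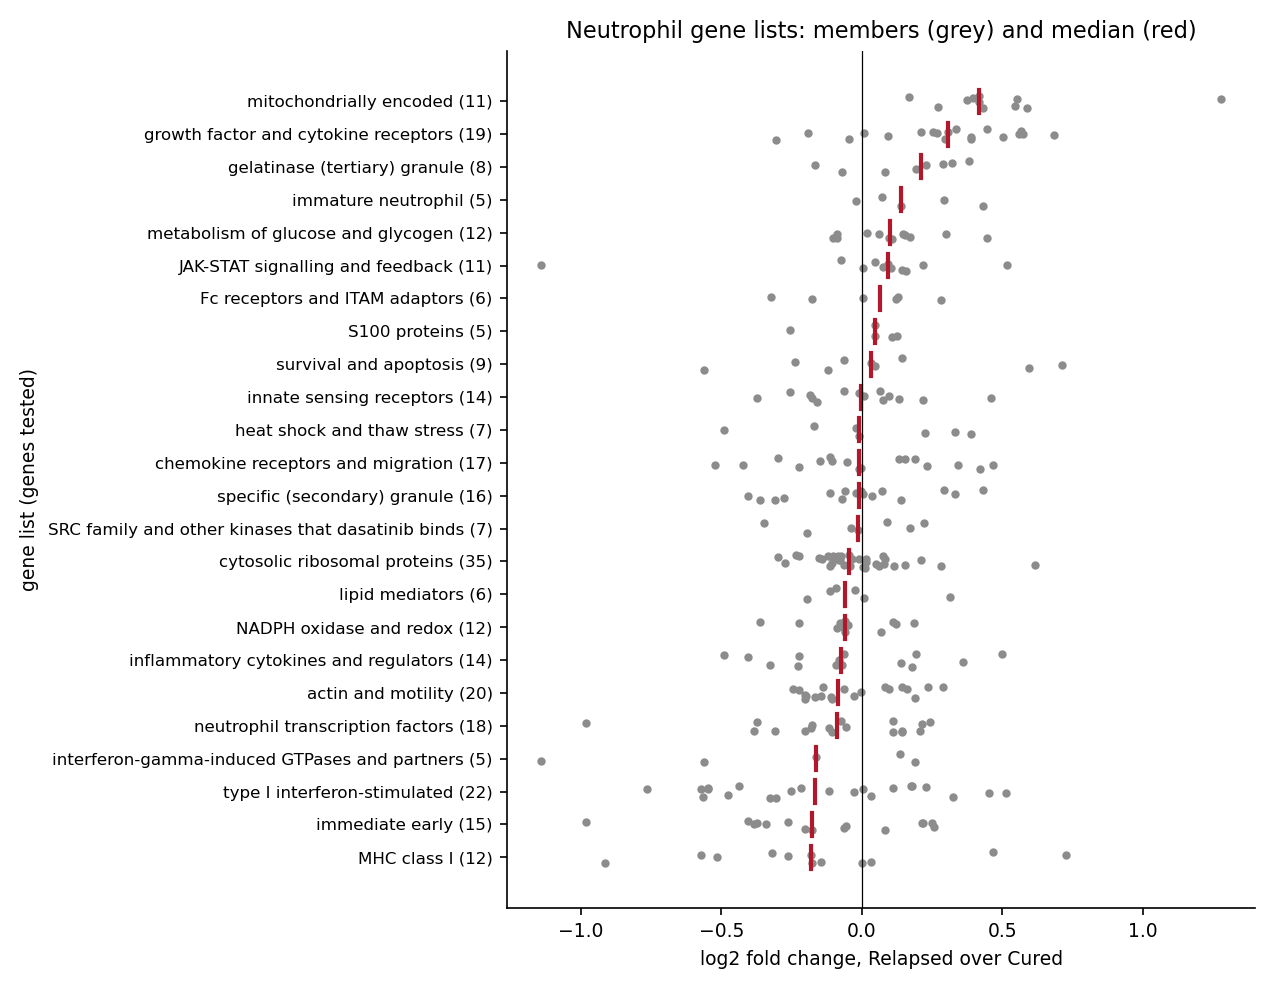
Log2 fold change of Relapsed over Cured in summed neutrophils for each tested member (grey points, with a random vertical offset) and the median (red bar) of 24 gene lists with 5 or more tested genes. The medians run from -0.18 for MHC class I to 0.42 for the mitochondrially encoded genes, and no list holds a called gene.

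The share of cells in each of 3 expression states was compared after every neutrophil had been thinned to 500 UMIs, with a cell counted as high at 3 UMIs of a list. For 20 interferon-stimulated genes the shares were 19.0% and 9.71% in the Relapsed libraries and 18.1% and 20.8% in the Cured libraries (exact permutation p = 0.667, two-sided). Relapsed replicate 2 was again the lowest. At a minimum of 2 UMIs the interferon shares were 30.6% and 21.7% in the Relapsed libraries and 30.8% and 34.4% in the Cured libraries. At 5 UMIs the shares were 7.77% and 4% in the Relapsed libraries and 8.37% and 8.85% in the Cured libraries. The groups overlapped at neither minimum (exact permutation p = 0.333 for each). For 11 inflammatory genes the shares were 58.7% and 53.7% in the Relapsed libraries and 56.4% and 69.8% in the Cured libraries (exact permutation p = 0.667), so the groups overlapped. They did not overlap at a minimum of 2 UMIs, with 75.6% and 69.1% in the Relapsed libraries and 76.2% and 79.2% in the Cured libraries, nor at 5 UMIs, with 31.6% and 27.4% in the Relapsed libraries and 33.0% and 32.8% in the Cured libraries. Without thinning they were 82.8% and 81.1% in the Relapsed libraries and 85.9% and 89.1% in the Cured libraries. Each of these 3 settings gave an exact permutation p of 0.333, the smallest that 2 libraries against 2 allow. For 6 secondary granule genes, among which Lcn2 is seen in many cells, they were 13.4% and 14.3% in the Relapsed libraries and 13.2% and 13% in the Cured libraries (exact permutation p = 0.333). Adjusted over the 3 states no p was under 0.05. Without thinning, the shares of the interferon list were 34.6% and 30.9% in the Relapsed libraries and 37.0% and 41.7% in the Cured libraries. These did not overlap either (exact permutation p = 0.333).

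Within neutrophils the states were not exclusive. Among cells high for the inflammatory list, 21.9% and 11.7% in the Relapsed libraries and 21.1% and 23.1% in the Cured libraries were also high for the interferon list. Among cells low for the inflammatory list the figures were 14.9% and 7.41% in the Relapsed libraries and 14.1% and 15.5% in the Cured libraries. Interferon-high cells were thus the larger share among inflammatory-high cells in each library. Inflammatory-high cells went the other way with the secondary granule list. They were 46% and 28% of secondary-granule-high cells in the Relapsed libraries and 40% and 56% in the Cured libraries, and 60.7% and 58% of the remaining cells in the Relapsed libraries and 58.9% and 71.9% in the Cured libraries. Outside the state list itself, Ifi27l2a had 3219 CPM in interferon-high cells and 1258 CPM in the others, and Ly6e, a GPI-anchored protein, had 1302 and 679 CPM in the same order, both higher in 4 of 4 libraries. Retnlg had 8828 and 13368 CPM in the same order, Cstdc4 414 and 1253 CPM, and both were lower in 4 of 4 libraries. These genes were named after their values had been seen.

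The effect in neutrophils was set against that in the monocytes and the B cells of the same libraries, with the library as a block in an edgeR quasi-likelihood fit. Against monocytes, 1 of 4007 genes (0.025%) had a different effect, with 162 (4.04%) at an unadjusted p under 0.05. It was AW112010, whose difference in log2 fold change, neutrophils minus monocytes, was 4.00 ± 0.68 (SE; edgeR adjusted p = 0.00932). Without the 3 barcodes that difference was 1.28 ± 0.94 (edgeR adjusted p = 1). Against B cells, 5 of 9679 genes (0.0517%) did, with 270 (2.79%) at an unadjusted p under 0.05: Ccl5 (2.84 ± 0.39), Gzma (3.73 ± 0.59), AW112010 (3.92 ± 0.65), Camp (6.08 ± 0.98) and Ngp (3.77 ± 0.64). The first 3 rested on the 3 barcodes described above. Without them, the differences of Ccl5, Gzma and AW112010 from B cells were 0.15 ± 0.51, 0.33 ± 0.94 and 1.18 ± 1.02 (edgeR adjusted p = 1 for each). No gene passed this test against B cells when either Relapsed library was left out. Camp in the B cell barcodes had 0 and 0 UMIs in the Relapsed libraries and 11 and 11 UMIs in the Cured libraries. In neutrophils, Camp had 598 and 5031 CPM in the Relapsed libraries and 1395 and 2790 CPM in the Cured libraries, a log2 fold change of 0.43 ± 1.45 (edgeR adjusted p = 0.995).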

How the data were processed

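Single-cell libraries were made with the 10x Genomics 5′ v1.1 kit and sequenced on a NovaSeq 6000, per the labels' protocols. Cell Ranger 3.1.0 and the mm10 genome are named in the submitters' processing notes; for the annotation release, the sources used here give nothing. For each library the authors deposited raw UMI counts, whole numbers per gene and barcode, and every barcode held at least 500 UMIs. Gates and filters were applied as given with the results. The members and gene lists were chosen with earlier results of these data known.

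Counts were summed over the neutrophils of each library and tested with edgeR 4.0.16 (TMM factors, filterByExpr, robust quasi-likelihood fit, Benjamini-Hochberg adjustment) in R 4.3.3. The same fit with a library block compared neutrophils with monocytes and B cells. Shares were compared with exact two-sided permutation tests over libraries (scipy 1.17.1), and their intervals are exact Clopper-Pearson at 95%; these and the limit of 3 counts behind a count of 0 cover counting error only. For state shares each cell was thinned once to 500 UMIs with a fixed seed. DESeq2 1.42.0, other filters and gates, and leaving out each library were the alternatives. On simulated sums of these neutrophils, the test recovered 39.5% of 200 genes changed 2-fold and 91.5% of 200 changed 4-fold. These were among 2393 and 2321 genes tested, and 3 and 14 unchanged genes were called as well. The changed genes were drawn at 50 CPM or more and all genes had a common dispersion. Genes carried by a few cells, such as Camp or Gzma, are thus not represented.

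Genes were named by rules: the gate and marker genes, up to 12 called genes per direction at a mean of 50 CPM or more, filled to 8 by smallest p, the 3 most abundant of each list, the 10 most abundant of all, and 15 and 10 by ratio to the other barcodes and to monocytes at 200 CPM or more. Genes of antigen receptors, of X inactivation or the Y chromosome, of mitochondria and of ribosomes, and predicted genes, were kept out of the second rule; AW112010 is named because it was called. Genes named outside these rules are said to be. Coordinates are from GENCODE M21 (GRCm38) and promoters from RefSeq (GRCm38.p6).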

Additional observations from a re-analysis of the deposited data

Results flagged for a closer look

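The Relapsed-against-Cured effect differed between neutrophils and another class of the same libraries for 6 results, each by a tested interaction in edgeR. Against monocytes the difference in log2 fold change was 4.00 for AW112010. Against B cells it was 3.92 for AW112010, 2.84 for Ccl5, 3.73 for Gzma, 6.08 for Camp and 3.77 for Ngp. Without the 3 barcodes rich in Gzma and Ccl5, the difference of AW112010 from monocytes was 1.28, and the differences from B cells were 0.15 for Ccl5, 0.33 for Gzma and 1.18 for AW112010 (edgeR adjusted p = 1 for each), while Camp (6.13) and Ngp (3.86) still passed. Lgals1 passed as well in the fits without the 3 barcodes, with differences of -3.40 from B cells and -3.30 from monocytes. Ltf (-6.80) and Hbb-bs (-8.52) also passed against monocytes in that fit. None of these genes passed with the 3 barcodes in, and they are named after their values were seen. With only the monocyte-gate barcode rich in Camp, Ngp and Ltf left out, the Ltf difference was -1.88. Within neutrophils alone, Camp had a log2 fold change of 0.43 ± 1.45 and Ngp of -0.02 ± 1.20 (SE; edgeR adjusted p = 0.995 and 0.997). Ngp UMIs in the B cell barcodes were 2 and 0 in the Relapsed libraries and 13 and 24 in the Cured libraries.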

How the results depend on the processing

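The count of 3 called genes was within 1.5 times under RLE size factors, DESeq2, a gate of 4 UMIs, thinning (which called Stfa1 and Phospho1 but not AW112010), no haemoglobin-rich cells and without the 21 granule-gene cells. It was 5 with no filter on low counts (adding Stfa1 and Stfa2) and 5 without cells over 3 times the median depth (adding Stfa1 and Ifi27l2a), 0 without the 3 barcodes and 0 without them and the 21 cells. Leaving out 1 library at a time gave 1 (without Relapsed replicate 2: Ccl5) to 5 (without Relapsed replicate 1: Gzma, Ccl5, Isg15, Ngp and Klf6), and, without the 3 barcodes as well, 0 to 18. Over all fits without 1 library, Ccl5 lay between -0.25 (without the 3 barcodes and Relapsed replicate 1) and 3.25. Gzma lost its call without Relapsed replicate 2 (edgeR adjusted p = 0.0635), and AW112010 without either Relapsed library (0.447 and 0.180) and in DESeq2 (0.160). Stfa1 was also called without Cured replicate 1 and among cells below the secondary granule state. The replicate block gave 4 calls, adding Stfa1; equal numbers do not pair the libraries (correlation of deviations 0.051 over 2567 genes). The difference from monocytes had 1 call, and 5 with no filter, 3 without the 3 barcodes, 4 without the monocyte-gate barcode rich in Camp, Ngp and Ltf, and 2 to 8 with 1 library left out. The difference from B cells had 5 calls, 3 without the 3 barcodes and 0 to 5 with 1 library left out (0 without either Relapsed library). The share difference ran from -1.23 to 6.15 points with 1 library left out. The secondary granule share difference was 0.73 points and -1.49 at 2 UMIs. The causes were not tested. Among 322 refits of the 17 genes named from the test, 306 kept direction and side of the threshold. All of these genes but Ccl5, Gzma and AW112010 were uncalled in the main fit and were picked by smallest p. For them, staying uncalled in refits of the same libraries was nearly fixed in advance and says little about stability. With 967 cells at a median of 979 UMIs, genes under about 50 CPM were poorly measured. A fit without a library assumes that its lone partner varies like the other group.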

Other observations

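Camp, Ngp and Ltf were also found outside the gate. A further 14 barcodes had 10 or more UMIs of the 3 genes, 13 of them kept, and 10 of the 14 were in Cured replicate 1; 8 were over the B cell limit and 1 was in the monocyte gate. The last held 1053 such UMIs, more than all but 1 of the 21 cells inside the gate, whose highest was 1075.

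In Relapsed replicate 1, the level of the haemoglobin gene Hbb-bs differed between the classes. Hbb-bs had 75.7 CPM in neutrophils, 3039 CPM in monocytes, 4179 CPM in B cells, 1663 CPM in T cells and 3423 CPM in NK cells of that library.

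Without the 3 barcodes and without Relapsed replicate 2, edgeR called 18 genes, among them Camp (-1.82), Ngp (-1.84) and Ltf (-1.51), all lower in Relapsed replicate 1 than in the Cured libraries. With both Relapsed libraries in, Camp had 598 and 5031 CPM in the Relapsed libraries and 1395 and 2790 CPM in the Cured libraries.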
